A study of Mus musculus with 10 samples.

Results

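The insulin-like growth factor (IGF) binding proteins and the proteases that cleave them were followed in 2 cell populations that had been isolated by fluorescence-activated sorting from the sutures of the mouse calvaria, the fibrous joints between the skull bones, at postnatal day 7. The 9 genes were chosen by symbol from the 25239 genes of the deposited count table: the binding protein genes Igfbp2, Igfbp3, Igfbp4, Igfbp5, Igfbp6 and Igfbp7, and the protease genes Pappa, Pappa2 and Htra1. All 9 were among the 15416 genes abundant enough to be tested. The labels name one population DDR2-plus, where DDR2 is a receptor for collagen, and the other PSC, which they do not expand, with 5 libraries in each. Both carry the genotype label WT, while the extraction protocol speaks of Ctsk-Cre mice, in which the promoter of cathepsin K, active in osteoclasts and in some periosteal and suture cells, drives the recombinase; the alleles of these animals are not settled by the labels. The protocol states 5 animals and does not tie animals to libraries, so the p-values here speak to the spread between libraries alone.

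The binding proteins are secreted, hold IGF-I and IGF-II outside the cell and, depending on the tissue, store the ligands in the matrix or keep them from their receptor. Bone and cartilage matrix hold large amounts of IGFs in this bound form. Pappalysin-1, the product of Pappa, cuts IGFBP4 and IGFBP5, pappalysin-2 from Pappa2 cuts IGFBP3 and IGFBP5, and the secreted serine protease HTRA1 cuts IGFBP5 as well as several matrix proteins. Each cut releases the ligand. IGFBP6 prefers IGF-II, and IGFBP7 binds IGFs only weakly.

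Of the 9 genes, 5 fell and 1 rose in DDR2-plus relative to PSC, and 3 did not pass the test (edgeR quasi-likelihood test, adjusted p below 0.05 over all tested genes). Among all tested genes, 39.1% passed by the same rule, 19.0% as lower and 20.1% as higher. Every gene that fell encodes a binding protein, and the gene that rose encodes the protease HTRA1. Of the 9 genes, 4 were called and at least 2-fold lower, against 6.01% of all tested genes, and the gene that rose did so by less than 2-fold, a size reached upward by 9.94% of all tested genes. The median log2 fold change of the 9 genes was -0.95, against 0.04 for all tested genes. CPM below are counts scaled to a common library size by the trimmed mean of M-values (TMM), and fold changes and their log2 values, the log2 differences, are DDR2-plus over PSC.

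The stretches of genome just before the start sites of 4 of the 5 genes that fell are given here as RefSeq places them on GRCm38, so that genes that fell by different folds can be set beside each other. They are shown where the RefSeq and GENCODE M21 starts lie within 30 bases of each other. Each is the 100 bases before the annotated start, on the strand of the gene. Capitals mark the letters TATNNA (N being any base), a TATA-like motif, on either strand within the last 60 bases.
Igfbp3: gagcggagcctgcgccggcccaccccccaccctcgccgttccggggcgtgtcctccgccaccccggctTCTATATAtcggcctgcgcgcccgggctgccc
Igfbp4: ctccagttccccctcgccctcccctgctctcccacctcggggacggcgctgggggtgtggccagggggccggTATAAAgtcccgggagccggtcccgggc
Igfbp5: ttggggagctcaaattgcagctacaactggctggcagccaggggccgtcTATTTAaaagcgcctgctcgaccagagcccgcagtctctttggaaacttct
Igfbp7: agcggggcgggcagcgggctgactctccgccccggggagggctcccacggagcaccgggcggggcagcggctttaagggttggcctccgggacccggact

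These stretches lie at chr11:7213924-7214023 on the minus strand (Igfbp3), chr11:99041144-99041243 on the plus strand (Igfbp4), chr1:72874866-72874965 on the minus strand (Igfbp5) and chr5:77408046-77408145 on the minus strand (Igfbp7). The motif was present in 3 of the 4, those of Igfbp3, Igfbp4 and Igfbp5, and in 18.8% of 32851 mouse promoters in windows of the same length. It was chosen after the sequences had been seen, and a match is a description of letters only. In Igfbp3 it overlaps matches on the opposite strand. On the strand of the gene it began 30 bases before the start of Igfbp3 and 28 bases before that of Igfbp4. In Igfbp5 it began 51 bases before the RefSeq start and 32 bases before the GENCODE M21 start. GGGCGG, the core of the GC box, was present on either strand in 1 of the 4 stretches, that of Igfbp7, at 3 places, and in 24.7% of all promoters. The RefSeq start of Igfbp6 lies 176 bases before its GENCODE start and that of Htra1 92 bases after it, so that their stretches are not shown. Of the 9 genes, 8 had an entry in the set of RefSeq promoters used here, and Pappa had none.

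Igfbp6 (mm10 chromosome 15, 102144362 to 102149511, plus strand) differed most. It had 41.8, 46.3, 86.2, 57.6 and 113 CPM in DDR2-plus libraries 1 to 5, against 394, 473, 604, 515 and 619.6 CPM in PSC libraries 1 to 5. The highest DDR2-plus library, number 5, was far below the lowest PSC library, number 1. Igfbp6 was 7.55-fold lower in DDR2-plus (log2 difference -2.92, SE 0.262, n = 5 per group; adjusted p by edgeR = 3.59e-06), and only 71 of the 15416 tested genes had a lower log2 fold change.

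Igfbp3 (chromosome 11, 7206086 to 7213923, minus strand), the main IGF carrier of the circulation, was next. It stood at 25.0, 40.01, 48.6, 21.2 and 61.5 CPM in DDR2-plus, against 150.2, 248.5, 362, 281 and 295 CPM in PSC. No value was shared between the groups, and both were spread wide, with a highest library 2.90 times the lowest in DDR2-plus and 2.41 times in PSC. The gene was 6.81-fold lower in DDR2-plus (log2 difference -2.77, SE 0.301, n = 5 per group; adjusted p by edgeR = 1.56e-05).

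The substrates of pappalysin-1 fell less. Igfbp5 (chromosome 1, 72857932 to 72874884, minus strand), whose protein binds to bone mineral and matrix, was at 146, 189, 256, 178 and 254 CPM in DDR2-plus, against 598, 773, 765, 654 and 649 CPM in PSC. No library of one group came near the other. The fold was 3.36 (log2 difference -1.75, SE 0.15, n = 5 per group; adjusted p by edgeR = 2.44e-06).

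Igfbp4 (chromosome 11, 99041244 to 99054392, plus strand), an inhibitor of IGF action in bone cells, had 533, 514, 892, 474 and 728 CPM in DDR2-plus, against 1418, 1465, 1709, 1537 and 1803 CPM in PSC. DDR2-plus 3 was the highest of its group and still below every PSC library. The fold was 2.52 (log2 difference -1.34, SE 0.161, n = 5 per group; adjusted p by edgeR = 3.43e-05).

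Igfbp7 (chromosome 5, 77349240 to 77408041, minus strand), also known from vessel walls, fell by a smaller and more even step. It was at 385, 366, 388, 361 and 359.5 CPM in DDR2-plus, against 512, 497, 528, 593 and 597 CPM in PSC. Its coefficient of variation was 3.68% in DDR2-plus and 8.56% in PSC, the lowest of the 9 genes in both groups. The fold was 1.47 (log2 difference -0.55, SE 0.0691, n = 5 per group; adjusted p by edgeR = 4.65e-05). With library size alone in place of TMM, Igfbp7 had a log2 difference of -0.28 (adjusted p by edgeR = 0.0076; the range over 16 alternative settings was 2.61e-13 to 0.0076). Of its exonic bases, 7.03% are shared with Polr2b on the opposite strand, and the library kit does not keep strand.

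Igfbp2 (chromosome 1, 72824503 to 72852474, plus strand), which lies 5457 bases from Igfbp5 with the 3′ ends of the pair facing each other, did not pass. It was at 114, 166, 186, 126 and 105 CPM in DDR2-plus, against 176, 151, 157, 172 and 143 CPM in PSC. DDR2-plus libraries 2 and 3 lay within the PSC range or above it, and the other 3 below it. The log2 fold change was -0.19 (SE 0.144, n = 5 per group; adjusted p by edgeR = 0.319), and 0.08 with library size alone.

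**Figure D1:**
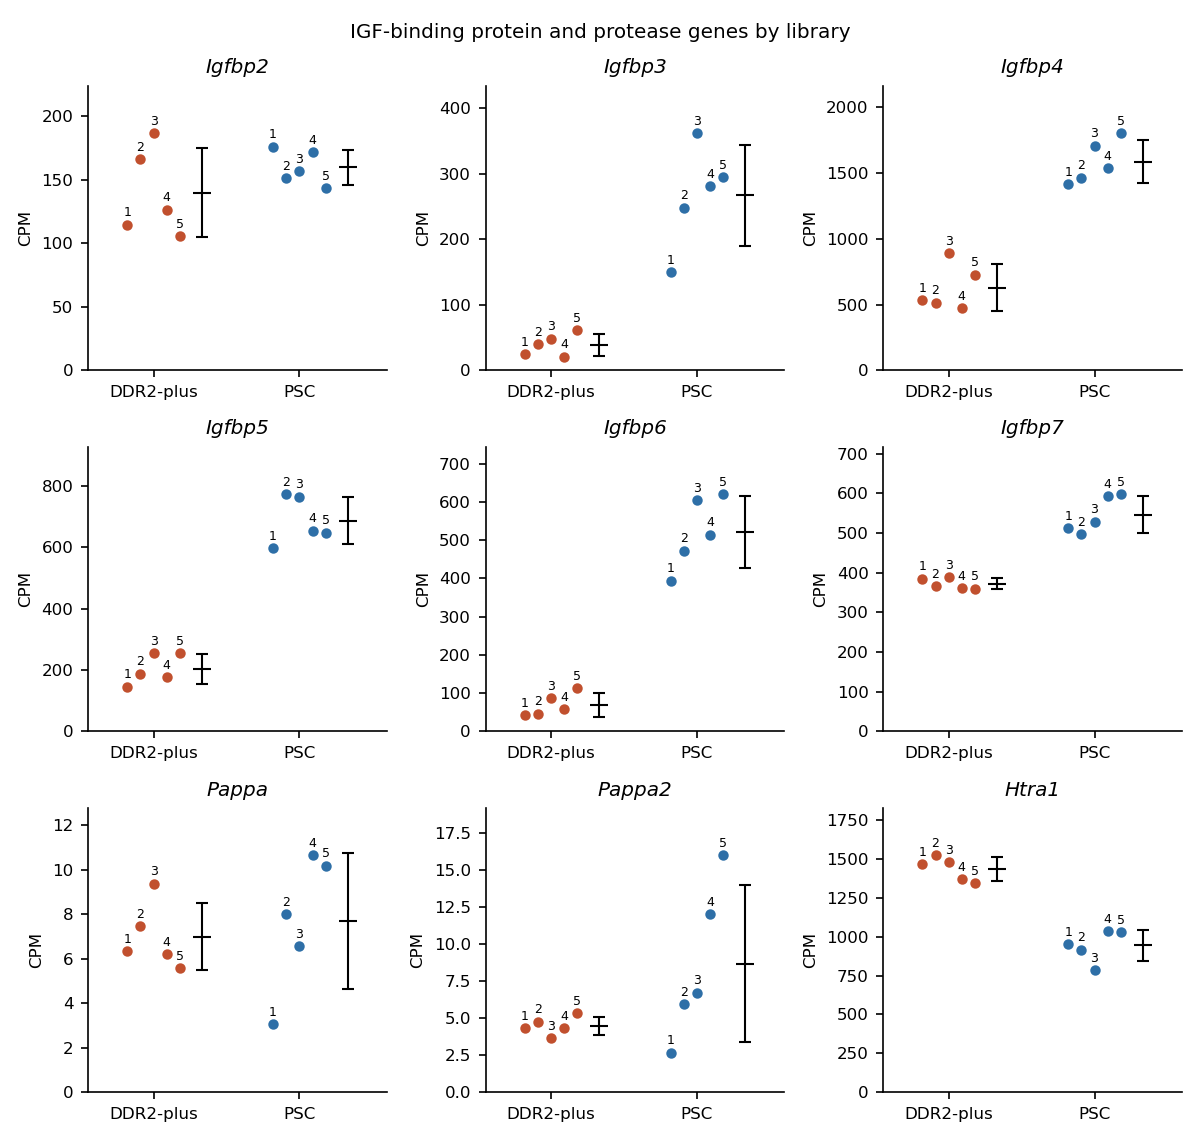
Expression of the 9 genes in CPM (vertical axis, from 0) in each DDR2-plus and PSC library, numbered as in the labels; black bars give mean and SD of 5 libraries. The groups do not overlap for Igfbp3, Igfbp4, Igfbp5, Igfbp6, Igfbp7 and Htra1, whereas Igfbp2, Pappa and Pappa2 overlap.

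The proteases behaved differently from one another. Htra1 (chromosome 7, 130936111 to 130985660, plus strand) had 1465, 1521, 1477, 1368 and 1344 CPM in DDR2-plus, against 951, 915, 785, 1036 and 1028 CPM in PSC. Every DDR2-plus library exceeded every PSC library. The gene was 1.52-fold higher in DDR2-plus (log2 difference 0.61, SE 0.0803, n = 5 per group; adjusted p by edgeR = 7.32e-05). The log2 fold change was 0.88 with library size alone.

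Pappa (chromosome 4, 65124174 to 65357509, plus strand) and Pappa2 (chromosome 1, 158711727 to 158980490, minus strand) were expressed at far lower levels. Pappa had 6.34, 7.48, 9.38, 6.21 and 5.58 CPM in DDR2-plus, against 3.07, 7.99, 6.58, 10.6 and 10.2 CPM in PSC, and the DDR2-plus values lay inside the PSC range (log2 difference -0.14, SE 0.300, n = 5 per group; adjusted p by edgeR = 0.758). Pappa2 had 4.34, 4.77, 3.63, 4.35 and 5.32 CPM in DDR2-plus, against 2.68, 5.94, 6.71, 11.997 and 15.96 CPM in PSC. Its DDR2-plus libraries lay close together, with a coefficient of variation of 13.9%, while that of the PSC libraries was 61.0%, the widest of the 9 genes. PSC 1 was the lowest of all 10 libraries for both pappalysin genes.

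Pappa2 did not pass the test (log2 difference -0.95, SE 0.384, n = 5 per group; adjusted p by edgeR = 0.0681). In 2 of 16 alternative settings it was called lower, without PSC 1 (log2 difference -1.18, edgeR adjusted p = 0.00804) and with DESeq2 (adjusted p = 0.0391). Over all 16 settings the adjusted p lay between 0.00804 and 0.231. Without PSC 5 the log2 fold change was -0.61.

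**Figure D2:**
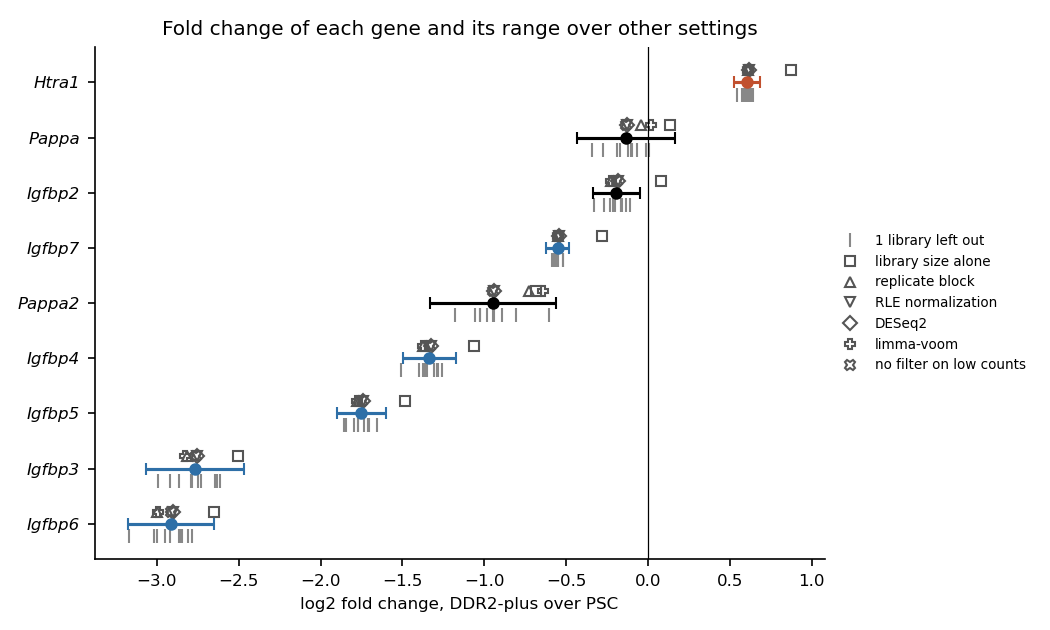
Log2 fold change of each of the 9 genes, DDR2-plus over PSC (horizontal axis). Filled circles with bars are the value and its SE (red where higher, blue where lower, black where the test was not passed), open symbols the other settings and grey ticks the fits with 1 library left out. The symbols of Igfbp2 and Pappa fall on both sides of 0, and the other 7 genes keep their sign.

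In all, 6 of the 9 genes did not overlap between the groups, where 30.1% of all tested genes did not. Spread within a population was not the same for all genes. In DDR2-plus the coefficients of variation of Igfbp6, Igfbp3, Igfbp4 and Igfbp5 were 43.7%, 42.5%, 28.2% and 23.8%, against 18.0%, 28.9%, 10.3% and 11.3% in PSC. DDR2-plus libraries 3 and 5 had the highest 2 values of the group for each of these genes. The same 2 libraries had the highest type I collagen share of counts (Col1a1 with Col1a2), at 8.24% and 6.38%, against 4.56% to 5.81% in the other DDR2-plus libraries and 21.5% to 23.7% in PSC. They were also the highest DDR2-plus libraries for the tendon genes Tnmd, at 88.2 and 109.9 CPM, and Scx, at 11.7 and 11.8 CPM, a pair named after their values were seen. Ctsk, also lower in DDR2-plus than in PSC, shared this order for library 3 but not for library 5. It was at 104, 101, 134, 97.8 and 99.4 CPM in DDR2-plus libraries 1 to 5. The tendon list summed to 3213 CPM in library 3, the lowest of DDR2-plus, and to 4158 CPM in library 5, the highest. Fmod, the 1 tendon gene that was higher in DDR2-plus, made up 3021 and 3914 CPM of these sums. The sums therefore follow Fmod and do not show how the other 5 tendon genes of the list behaved. Whether DDR2-plus libraries 3 and 5 held more cells of the kind found in PSC was not tested. In bulk RNA of sorted cells, fewer cells of a type and less RNA per cell cannot be told apart.

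Levels were then set side by side per kilobase of exon, which allows genes of different length to be compared. In DDR2-plus the order was Htra1 at 703 ± 37.0, Igfbp7 at 308 ± 11.3, Igfbp4 at 160.1 ± 45.1, Igfbp2 at 95.7 ± 23.8, Igfbp6 at 62.1 ± 27.1, Igfbp5 at 34.0 ± 8.11 and Igfbp3 at 12.5 ± 5.33 CPM per kb (SD, n = 5). In PSC, Igfbp6 at 469 ± 84.4, Htra1 at 462 ± 50.0, Igfbp7 at 451 ± 38.6 and Igfbp4 at 404 ± 41.7 CPM per kb stood within their spread of each other, followed by Igfbp5 at 115 ± 12.9, Igfbp2 at 109 ± 9.43 and Igfbp3 at 85.4 ± 24.7 CPM per kb (SD, n = 5). Htra1 ranked 43 in DDR2-plus and 80 in PSC among 24366 genes with a known length. Igfbp6 ranked 798 in DDR2-plus and 77 in PSC. Pappa was at 0.635 ± 0.136 and 0.698 ± 0.278 CPM per kb in DDR2-plus and PSC, and Pappa2 at 0.471 ± 0.0653 and 0.910 ± 0.555 CPM per kb (SD, n = 5 each), so that both pappalysin transcripts were scarce beside their substrates in either population.

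The 6 binding protein genes summed to 603, 633, 812, 594 and 719 CPM per kb in DDR2-plus, against 1407, 1521, 1766, 1661 and 1811 CPM per kb in PSC. The mean sum in DDR2-plus was 41.2% of that in PSC. Igfbp7 made up 46.4% ± 5.71 of the sum in DDR2-plus and 27.7% ± 2.15 in PSC. Igfbp6 made up 9.05% ± 3.19 in DDR2-plus and 28.5% ± 2.35 in PSC, and Igfbp2 14.3% ± 2.96 in DDR2-plus and 6.78% ± 1.18 in PSC. Igfbp4 held a like share in both, 23.5% ± 3.33 in DDR2-plus and 24.8% ± 0.820 in PSC (SD, n = 5 each, for all shares). Igfbp5 made up 5.02% ± 0.668 and Igfbp3 1.83% ± 0.630 in DDR2-plus, against 7.05% ± 0.927 and 5.16% ± 1.12 in PSC. Shares are given as a description, without a test, and depend on the exon lengths of GENCODE M21.

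**Figure D3:**
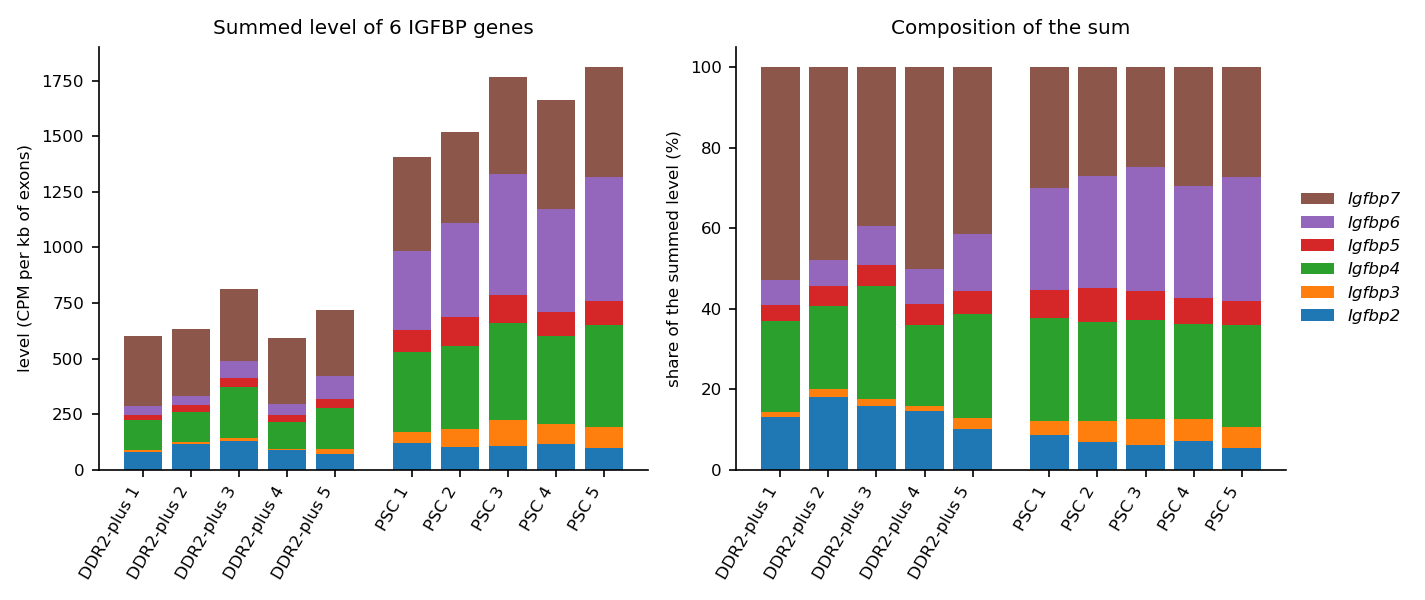
Left, summed level of the 6 IGFBP genes in CPM per kb of exon in each library; right, the share of each gene in that sum in percent. The DDR2-plus sums lie between 594 and 812 CPM per kb and the PSC sums between 1407 and 1811 CPM per kb, and Igfbp7 is the widest band in every DDR2-plus library.

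Ratios of a protease to its substrate within one library do not depend on how libraries are scaled to each other. They use the same counts as the gene tests, so they are another view of those results and not separate evidence. Of 6 ratios, of which 5 set a protease over a binding protein and 1 sets Igfbp5 over Igfbp4, all but that of Pappa2 to Igfbp5 differed between the populations (exact permutation test over libraries, two-sided, Benjamini-Hochberg adjusted over the 6). The test treats libraries as unpaired, and no form paired by library number was run. The log2 ratio of Htra1 to Igfbp5 counts was 3.33, 3.01, 2.53, 2.94 and 2.40 in DDR2-plus, against 0.67, 0.24, 0.04, 0.66 and 0.66 in PSC. Htra1 thus outnumbered Igfbp5 in reads in all 10 libraries, and by 5.23 times more in DDR2-plus (difference 2.39 on the log2 scale; exact permutation p = 0.00794, the smallest that 5 against 5 can give, adjusted p = 0.0119).

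The log2 ratio of Pappa to Igfbp4 was -6.47 ± 0.356 in DDR2-plus and -7.80 ± 0.658 in PSC, a difference of 1.34 (SD, n = 5 each; exact permutation p = 0.00794, adjusted p = 0.0119). That of Pappa to Igfbp5 was -4.86 ± 0.382 in DDR2-plus and -6.60 ± 0.684 in PSC, a difference of 1.74 with the same exact p-values. The log2 ratio of Pappa2 to Igfbp3 was -3.03 ± 0.626 in DDR2-plus and -5.14 ± 0.723 in PSC, a difference of 2.11, again with the same exact p-values. None of these 3 ratios overlapped between the groups, although neither protease gene had passed as changed.

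Pappa2 to Igfbp5 was the ratio that did not pass, at -5.49 ± 0.405 in DDR2-plus and -6.55 ± 0.991 in PSC (SD, n = 5 each; difference 1.07; exact permutation p = 0.0714, adjusted p = 0.0714). PSC libraries 4 and 5, at -5.77 and -5.34, reached the DDR2-plus range of -6.13 to -5.07. Without PSC 5 the difference was 1.37 and the adjusted exact p was 0.0238, within a range of 0.0238 to 0.135 over the libraries left out. Igfbp5 fell more than Igfbp4. Their log2 ratio was -1.61 ± 0.211 in DDR2-plus and -1.21 ± 0.198 in PSC, a difference of -0.40 (SD, n = 5 each; exact permutation p = 0.0238, adjusted p = 0.0286). PSC 5, at -1.47, lay inside the DDR2-plus range of -1.87 to -1.41. Without PSC 2 the difference was -0.33 and the adjusted exact p was 0.0667, the highest of a range from 0.00952.

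**Figure D4:**
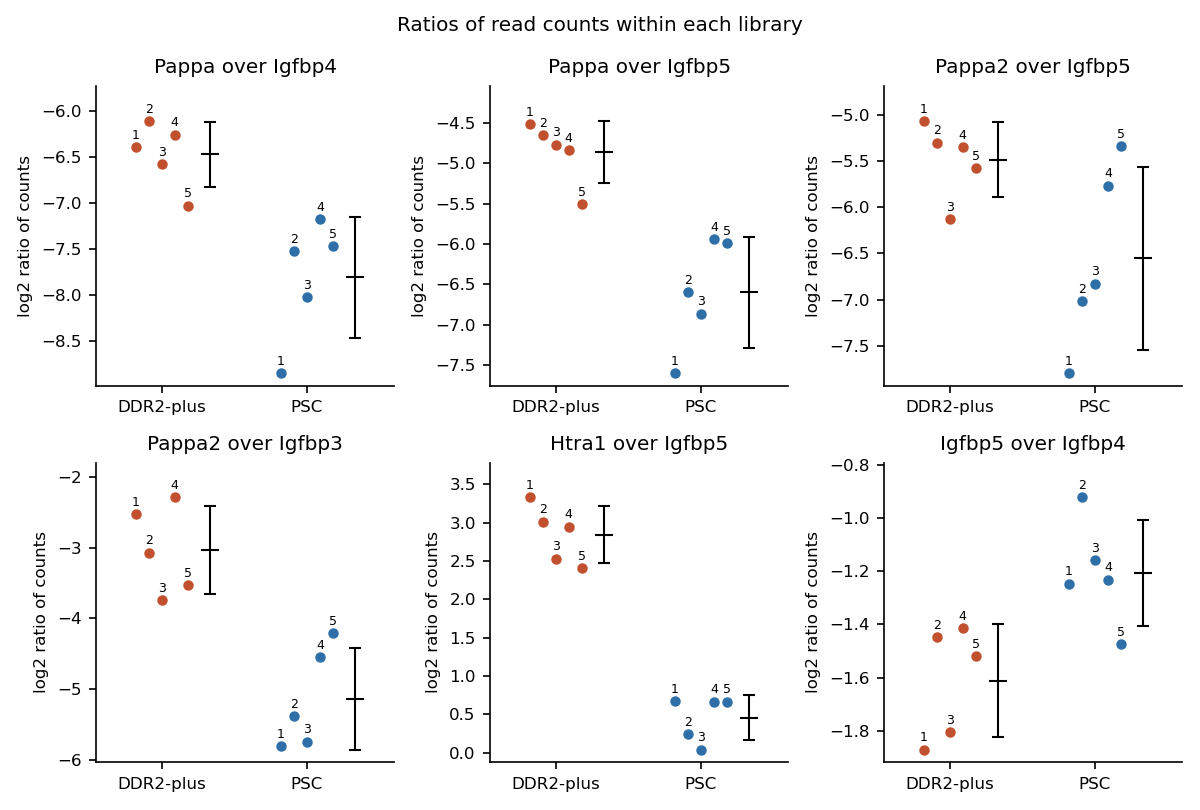
Log2 ratio of read counts of the named gene pairs within each library (vertical axis), by population, with library numbers; black bars give mean and SD of 5 libraries. The ratios of Pappa to Igfbp4 and Igfbp5, of Pappa2 to Igfbp3 and of Htra1 to Igfbp5 lie higher in every DDR2-plus library than in any PSC library.

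Other genes that bear on the binding proteins moved both ways. Of 21 further IGF system genes, 16 were tested. Of these, 5 rose, 1 fell and 10 did not pass, where 20.1% of all tested genes rose and 19.0% fell. Their median log2 fold change was 0.23. Igfals encodes the acid-labile subunit, which joins IGF and IGFBP3 or IGFBP5 in a large complex in blood. It was at 28.7, 27.5, 25.5, 25.3 and 25.4 CPM in DDR2-plus, against 15.1, 5.61, 7.13, 13.1 and 8.89 CPM in PSC, 2.66-fold higher in DDR2-plus (edgeR adjusted p = 0.000409). The groups did not overlap, and the direction was opposite to that of Igfbp3 and Igfbp5.

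The gene that fell was the ligand gene Igf1, at 53.7, 77.8, 111, 55.2 and 102 CPM in DDR2-plus, against 277, 441, 472, 363 and 430.1 CPM in PSC. DDR2-plus 3 and 5 were again the highest of their group. Igf2, the ligand that IGFBP6 prefers, spanned 2491 to 2877 CPM in DDR2-plus libraries and 2642 to 3418 CPM in PSC libraries. It did not pass (edgeR adjusted p = 0.0961). In 2 of 16 settings Igf2 passed as lower, without PSC 1 (log2 difference -0.21, edgeR adjusted p = 0.0318) and with the library number as a block. The adjusted p lay between 0.0318 and 0.288 over the 16 settings. Of the exonic bases of Igf2, 70.4% are shared with other annotated genes. The receptor genes Igf1r, at 44.5 ± 5.32 CPM in DDR2-plus libraries against 38.4 ± 4.17 CPM in PSC libraries, and Insr, at 28.7 ± 6.52 against 27.8 ± 4.79 CPM, did not pass (SD, n = 5 per group; adjusted p by edgeR = 0.137 and 0.864). With library size alone Igf1r passed as higher (log2 difference 0.48, edgeR adjusted p = 0.0022; 0.0022 to 0.336 over 16 settings). The IGF-II receptor gene Igf2r, which clears the ligand, was 1.30-fold higher (edgeR adjusted p = 0.0132), and the adaptor genes Irs1, of whose exonic bases 30.9% are shared with another gene, and Irs2 were 2.09-fold and 1.91-fold higher. Grb10, an inhibitor of the receptors, was 1.19-fold higher (edgeR adjusted p = 0.0338) and lost its call in 7 of 16 alternative settings, all with 1 library left out; over the 16 settings the adjusted p lay between 0.000228 and 0.0982. Its relative Grb14, at 13.96 ± 2.78 CPM in DDR2-plus libraries and 17.9 ± 4.61 CPM in PSC libraries, did not pass (SD, n = 5 each; edgeR adjusted p = 0.147).

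The stanniocalcin genes Stc1 and Stc2 encode inhibitors of the pappalysins, and neither passed. Stc1 had 5.21, 3.32, 3.04, 2.88 and 1.69 CPM in DDR2-plus, against 1.32, 0.45, 0.533, 0.412 and 8.09 CPM in PSC. All DDR2-plus libraries exceeded 4 of the 5 PSC libraries, and PSC 5 exceeded them all (log2 difference 0.58, SE 0.781, n = 5 per group; adjusted p by edgeR = 0.596). Without PSC 5 Stc1 passed as higher in DDR2-plus (log2 difference 2.24, edgeR adjusted p = 0.00499, the lowest over 16 settings, the highest being 0.797). Stc2 had 2.45, 3.69, 5.60, 3.25 and 3.40 CPM in DDR2-plus, against 9.82, 6.06, 6.28, 1.10 and 6.002 CPM in PSC. PSC 4 was the lowest of all, and without it Stc2 passed as lower (log2 difference -0.94, edgeR adjusted p = 0.0240, the lowest over 16 settings, the highest being 0.522), while with all libraries it did not (log2 difference -0.67, edgeR adjusted p = 0.257).

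The remaining relatives were at or near 0 in PSC. Igfbp1, a binding protein of the liver, had 0 counts in all 10 libraries, which allows up to 0.00999 CPM for DDR2-plus and 0.0134 CPM for PSC (3 counts over each group, counting error only). Igfbpl1, an IGFBP-like gene known from the developing nervous system, had 976, 78, 391, 813 and 0 counts in DDR2-plus and 0 in every PSC library. It did not pass the filter on low counts and was not tested. Pooled over the whole group, Igfbpl1 was at least 563-fold higher, a bound that covers counting error only and not the spread between libraries. Its level was uneven within DDR2-plus, at 17.3, 1.36, 6.40, 11.9 and 0 CPM. Of the neuron markers 4 of 5 were higher in DDR2-plus, with summed levels of 94.8, 33.6, 54.9, 57.3 and 74.3 CPM in its libraries and 4.73 to 10.1 CPM in PSC. The glia and Schwann cell markers were higher for 6 of 6, with sums of 697, 227, 481, 373 and 209.8 CPM in DDR2-plus libraries and 7.81 to 41.2 CPM in PSC. Of 5 pineal markers 4 were higher, with sums of 124 to 196 CPM in DDR2-plus libraries and 4.37 to 7.52 CPM in PSC. Of 4 olfactory epithelium markers 3 were tested and higher. They summed to 15.2, 7.48, 9.82, 9.20 and 261 CPM in DDR2-plus libraries and 0 to 1.28 CPM in PSC. DDR2-plus 5, without Igfbpl1 counts, had the lowest glia and pineal sums of its group but not the lowest neuron sum. Its olfactory sum was the highest. The part of any of these lists in the Igfbpl1 result was not tested. Prg2, whose product blocks pappalysin-1, had 29 counts in DDR2-plus and 57 in PSC, 54 of them in PSC 2.

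A further list held 15 genes of proteases of IGF-binding proteins and of relatives of Htra1 (Htra2, Htra3 and Htra4), and 12 were tested. Of these, 2 rose, 6 fell and 4 did not pass, where 20.1% of all tested genes rose and 19.0% fell. Their median log2 fold change was -0.43. The most abundant were the metalloprotease genes Mmp2, 1.64-fold lower, and Mmp14, 1.42-fold lower, Ctsd without a call (edgeR adjusted p = 0.427), and Mmp9, which osteoclasts also make, 2.77-fold higher in DDR2-plus (edgeR adjusted p of 0.000422 or less for the MMP genes). Ctsd shares 38.0% of its exonic bases with another gene on the same strand. Of 4 osteoclast markers only Acp5 was tested, and it was lower. The 4 summed to 12.9 to 18.4 CPM in DDR2-plus and 23.0 to 30.1 CPM in PSC, and a part of osteoclasts in the Mmp9 result was not tested. The relatives of Htra1, named here after their values were seen, did not move as one. Htra3 averaged 237 ± 27.9 CPM in the DDR2-plus libraries and 414 ± 14.1 CPM in those of PSC, 1.75-fold lower (SD, n = 5 per group; adjusted p by edgeR = 7.80e-06). Htra4 averaged 35.7 ± 13.9 CPM in the DDR2-plus libraries and 5.84 ± 2.36 CPM in those of PSC, 6.11-fold higher (SD, n = 5 per group; adjusted p by edgeR = 3.43e-05), with 36.3% of its exonic bases shared with a gene on the opposite strand. Htra2, which encodes a mitochondrial protease, was 1.33-fold lower and lost its call with library size alone (edgeR adjusted p = 0.345; 0.00702 to 0.345 over 16 settings). Of the exonic bases of Htra2, 34.0% are shared with genes on the opposite strand. Adam12, which encodes a membrane protease that cuts IGFBP3 and IGFBP5, was 2.86-fold lower (edgeR adjusted p = 7.61e-06), also named after its values were seen.

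Total counts were 49843470 to 62021992 in DDR2-plus and 43419129 to 58270419 in PSC, so that 1 count was worth 0.0146 to 0.0249 CPM. Ddr2 itself was 1.36-fold lower and Ctsk 2.74-fold lower in DDR2-plus (edgeR adjusted p = 0.000165 and 4.36e-07), and the sort reads protein, not mRNA. Cell type markers differed between the populations, and their part in the results on the binding proteins was not tested. All 8 chondrocyte genes were higher in DDR2-plus, with a summed level of 81782 to 114070.0 CPM against 9724 to 23974 CPM in PSC. Of 7 osteoblast genes 6 were lower, summing to 25559.6 to 46707 CPM in DDR2-plus and 139863 to 161038 CPM in PSC, and of 6 tendon genes 5 were lower and Fmod higher. Of 8 endothelial genes, of which 6 were tested and which are listed because vessels express Igfbp7 and Igfbp3, 3 were higher and 2 lower, with sums of 24.7 to 52.5 CPM in DDR2-plus and 20.8 to 42.0 CPM in PSC. Of 6 pericyte and smooth muscle genes, 2 were higher, Cspg4 and Acta2, and 3 lower, Kcnj8, Abcc9 and Myh11. Their sums were 733 to 940.4 CPM in DDR2-plus and 501 to 569.6 CPM in PSC. Most of each sum was Cspg4, at a mean of 614 against 317 CPM, and Acta2, at 219 against 131 CPM. The sum thus does not follow the 3 genes that fell. Markers of the choroid plexus, a brain tissue that expresses Igfbp2, were higher for 4 of 5 genes and uneven. Their sums were 96.9, 683, 1109, 1633 and 60.3 CPM in DDR2-plus and 6.20 to 14.9 CPM in PSC. No chondrocyte, osteoblast, tendon, endothelial, pericyte and smooth muscle or choroid plexus marker was at 0 in all libraries of a group. In PSC, 1 marker each of the osteoclast, pineal and olfactory epithelium lists was at 0 in all libraries.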

How the data were processed

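RNA from 10 libraries of sorted mouse suture cells was measured. Per the labels' protocols, 1 ng of RNA went into full-length cDNA synthesis by template switching, libraries came from a transposase kit that keeps no strand, and reads were paired with 50 cycles. The build mm10 and DESeq are named in the submitters' processing notes, while aligner, counter and annotation are not named in the sources used here. The authors deposited raw whole-number counts, 1 row per gene symbol. These went into edgeR 4.0.16 with its quasi-likelihood test (R 4.3.3, TMM, filterByExpr, no covariates, Benjamini-Hochberg threshold 0.05). Each standard error is the log2 fold change over the root of its F statistic. DESeq2 1.42.0 and limma-voom (limma 3.58.1) were alternatives. Exon lengths and coordinates come from GENCODE M21 (GRCm38), and the lengths are unions of exons of the basic set. Ratios used counts plus 0.5. On simulated counts with known changes the test was checked first. The simulation changed a far smaller part of the genes than was called here and had no difference in type I collagen share. Recovery was required only for genes more abundant than Pappa and Pappa2. The check therefore does not speak to those features of the data. Amplified reads are not independent molecules, so limits for 0 counts cover counting error only. No 2 libraries of a group agreed within sampling noise (lowest chi-square per degree of freedom 41.9). The 9 genes and the other lists were chosen with earlier results of these data known. All 9 genes are named, as are the ligands, main receptors and pappalysin inhibitors of the pathway list and the 4 most abundant other proteases.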

Additional observations from a re-analysis of the deposited data

Results flagged for a closer look

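Of 85 groups of 5 libraries examined, 6 held a library far from the other 4 by Dixon's test, and none of these concerned the 9 genes or their ratios. The test flags about 1 in 20 by chance where values are normally distributed. A gene with counts in only 1 library of 5, as Insrr and Irs4 here, is flagged whatever its count. The 6 therefore cannot be set against that rate. Stc1 was at 8.09 CPM in PSC 5 and at 0.412 to 1.32 CPM in the other PSC libraries. Prg2 was at 1.22 CPM in PSC 2 and at most 0.0695 CPM in the others. Insr, the insulin receptor gene, was at 36.2 CPM in PSC 1 and at 24.6 to 27.6 CPM in the other PSC libraries. Igf2bp1, which encodes an RNA-binding protein of Igf2 mRNA, was at 2.18 CPM in DDR2-plus 4 and at 5.11 to 5.92 CPM in the other DDR2-plus libraries. Insrr had counts only in DDR2-plus 5, at 0.314 CPM, and Irs4 only in DDR2-plus 4, at 0.205 CPM.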

How the results depend on the processing

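The calls of Igfbp3, Igfbp4, Igfbp5, Igfbp6 and Igfbp7 as lower and of Htra1 as higher held in all 16 alternative settings. With library size alone in place of TMM, 5421 genes were higher and 1538 lower over all genes, against 3096 and 2926, and the median over all tested genes was 0.31 on the log2 scale, against 0.04, so that changes are relative to that shift. Igfbp2 (0.079), Pappa (0.14), Igf2 (0.10) and Igf2bp2 (0.14) changed sign on the log2 scale in that setting, as did Pappa with limma-voom (0.019), and none of these passed; Igf1r (0.48), Igf2bp3 (0.65), Ghr (0.29) and Ctsd (0.33) passed as higher there. With 1 library left out, the log2 fold change ranged from -0.34 to 0.0086 for Pappa, from -0.044 to 0.16 for Insr and from -0.035 to 0.080 for Ghr. In the same way the log2 ratio difference ranged from -0.47 to -0.33 for Igfbp5 to Igfbp4 and from 0.75 to 1.37 for Pappa2 to Igfbp5. The causes were not tested. Libraries with the same number correlated at 0.0289 to 0.0532 in their deviations from the group means, and each correlated best with its own number, a hint from the data only. With the library number as a replicate block, 3054 genes were higher and 2688 lower, and no call of the 9 genes changed; Igf2 passed as lower (edgeR adjusted p = 0.041). With the length of the principal transcript, chosen after seeing the data, Igfbp3 made up 6.47% of the IGFBP sum in PSC, and the other shares moved by less than 1 SD. Pappa and Pappa2 rest on 142 to 641 counts a library.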
